A study of Homo sapiens with 4 samples.

Results

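RN7SL1, RN7SL2 and RN7SL3 are the functional human genes of 7SL RNA, and their reads were examined in the RNA carried by extracellular vesicles (EVs) of PC3 cells. They are 3 of the 58051 genes in the count files, found there by Ensembl identifier. The genes were chosen by their annotation, with the high read counts of RN7SL2 and RN7SL3 already known, so their levels are given as a description and were not tested. PC3 is a human prostate cancer line established from a metastasis in bone. Its EVs were collected from conditioned medium by membrane affinity and chromatography columns, RNA was extracted from the EVs, and total RNA was sequenced as stranded libraries in 2 biological replicates. All samples are of this 1 untreated condition, and the parent cells were not sequenced, so no level below can be set against that in the cell.

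7SL RNA is the RNA backbone of the signal recognition particle (SRP). The particle binds the signal peptide of a nascent secretory or membrane protein, pauses translation and brings the ribosome to its receptor on the endoplasmic reticulum, where the chain enters the translocon. 7SL RNA is transcribed by RNA polymerase III, it is abundant in the cytoplasm, and Alu repeats and a large number of pseudogenes derive from it. It is also known as a common RNA of EV preparations.

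The genes lie on chromosome 14 of GRCh38. RN7SL1 (ENSG00000276168) occupies bases 49586580 to 49586878 of the plus strand. RN7SL3 (ENSG00000278771) occupies 49853616 to 49853914 and RN7SL2 (ENSG00000274012) occupies 49862550 to 49862849, both on the minus strand. Each is annotated as a single exon with no coding sequence. Their RNAs are not all the same at 11 positions, and these are the bases that tell their reads apart.

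RN7SL1 and RN7SL2 differed at 4 of the 299 bases compared, counted from 1 at the 5′ end, and were 98.7% identical. From RN7SL1 to RN7SL2 the substitutions are C52T, T53G, T69C and G275A. RN7SL1 and RN7SL3 differed at 7 positions (97.7% identity), by G62C, C70T, A118G, C242T, C285T, C293T and T295C. RN7SL2 and RN7SL3 differed at all 11 positions (96.3% identity). The differences lie from base 52 to base 118 and from base 242 to base 295, and none lies before base 52. Bases 70 to 274, a run of 205, are the same in RN7SL1 and RN7SL2, and bases 119 to 241, a run of 123, are the same in all the genes.

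To see how far a read could be assigned to a single gene, every stretch of 75 bases within each RNA was looked up, without mismatches and on both strands, in the assembled chromosomes of GRCh38. The length of 75 bases is an assumption, because the run was of 150 cycles but the read length after trimming is not given in the sources used here. In RN7SL2, 36 of 226 such windows (15.9%) occurred at a single place in the genome, against 51 of 225 (22.7%) in RN7SL1 and 176 of 225 (78.2%) in RN7SL3. Such windows covered most starts in RN7SL3, while in RN7SL1 and RN7SL2 they lay near the ends. In RN7SL2 the single-place windows began at bases 1 to 10 and 201 to 226, and in RN7SL1 at bases 1 to 26 and 201 to 225. With windows of 50 bases the numbers were 33 in RN7SL2, 39 in RN7SL1 and 155 in RN7SL3, and with windows of 150 bases, a length added after the data were seen, they were 52 of 151, 51 of 150 and all 150. The most repeated 75-base windows of each gene were found at 5 places.

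**Figure D1:**
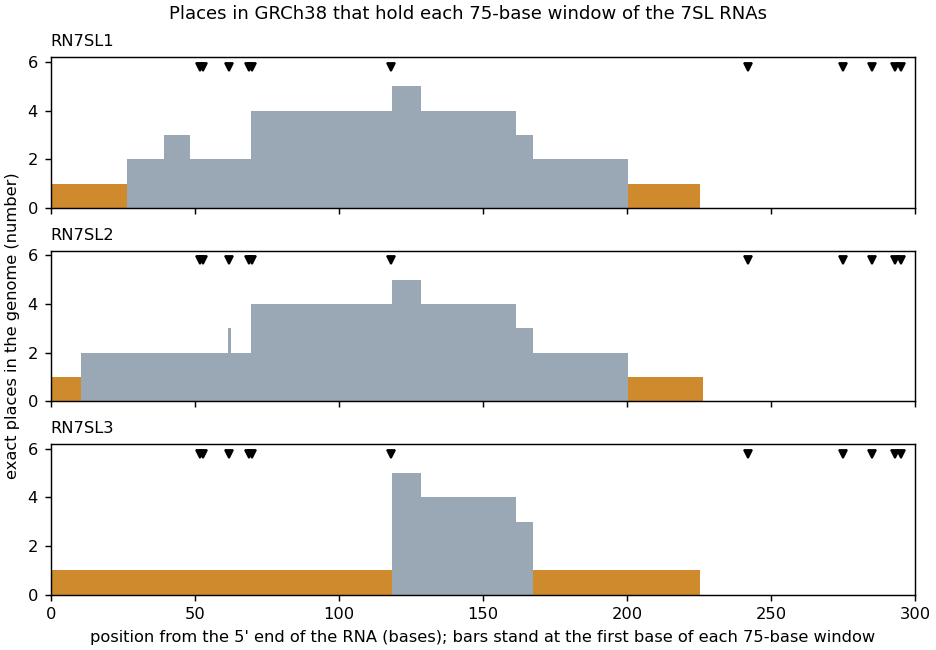
Bars give the number of exact places in the GRCh38 chromosomes (y axis) for the 75-base window that starts at each base of RN7SL1, RN7SL2 and RN7SL3 (x axis, bases from the 5′ end), orange where that number is 1 and grey where it is higher, and black triangles mark the 11 positions at which the genes differ. Single-place windows make up 176 of 225 in RN7SL3, and only short stretches near both ends in RN7SL1 and RN7SL2.

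The libraries held 489170 reads counted on genes in replicate 1 and 475942 in replicate 2, which is 2.50% and 2.16% of the reads listed in the files. Reads with several alignments were not counted on any gene and made up 45.5% and 48.1% of all reads. Reads that fell on no annotated feature made up 36.3% in replicate 1 and 35.4% in replicate 2, and unaligned reads 14.2% and 12.8%. How many of these came from 7SL RNA cannot be read from the files, so the counts below describe only reads placed once and assigned to a gene. Whether the strand setting, which is not given, affected the reads on no feature was not tested. A floor of 3 reads corresponded to 0.000613% (replicate 1) and 0.000630% (replicate 2) of the gene counts. Such limits and the 95% Wilson intervals cover counting error only, since amplified reads are not independent molecules. Among marker genes, the epithelial keratin KRT8 had 966 and 1088 reads in replicates 1 and 2, KRT18 had 94 and 87 and EPCAM 2 and 26. The spans of KRT8 and KRT18 overlap on opposite strands. Whether reads of either gene were counted on the other was not tested. KLK3, the haemoglobin genes HBA1, HBA2 and HBB, and ALB had 0 reads in both replicates.

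RN7SL2 was the gene with the most reads in both libraries. It had 83154 reads in replicate 1, or 17.0% of the gene counts (95% Wilson interval 16.9 to 17.1%), and 69876 in replicate 2, or 14.7% (14.6 to 14.8%). The mean was 15.8% ± 1.64 (SD, n = 2). RN7SL2 thus took a larger share in replicate 1, by 1.16 times.

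RN7SL3 ranked 3 in both libraries and varied more. It had 23251 reads, or 4.75% (4.69 to 4.81%), in replicate 1 and 36549 reads, or 7.68% (7.60 to 7.76%), in replicate 2, a mean of 6.22% ± 2.07 (SD, n = 2). Its share was 1.62 times higher in replicate 2, the opposite order to RN7SL2.

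No read was counted on RN7SL1 in either replicate. Its 95% Wilson interval reached up to 0.000785% in replicate 1 and 0.000807% in replicate 2, and counts of 0 allow a share of up to 0.000613% and 0.000630%, the limits set by 3 reads. RN7SL1 was 1 of 46837 genes of the table at 0 in both. Its sequence has 51 single-place windows of 75 bases against 36 in RN7SL2, and 51 against 52 with 150 bases. Whether the number of such windows bears on the count of 0 was not tested. A count of 0 here is a property of the counted reads and does not show that the RNA was absent.

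The sum of the 3 genes was steadier than its parts. It came to 106405 reads in replicate 1 and 106425 in replicate 2, or 21.8% (21.6 to 21.9%) and 22.4% (22.2 to 22.5%) of the gene counts. The mean was 22.1% ± 0.430 (SD, n = 2), a coefficient of variation of 1.95% against 10.3% for RN7SL2 and 33.3% for RN7SL3. The genes made up 98.4% and 98.8% of the reads on all genes annotated as miscellaneous RNA. Set against all reads listed in the files they were 0.544% and 0.483%. For each read counted on a 7SL gene, 83.6 reads in replicate 1 and 99.6 in replicate 2 had been set aside for aligning to several places.

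**Figure D2:**
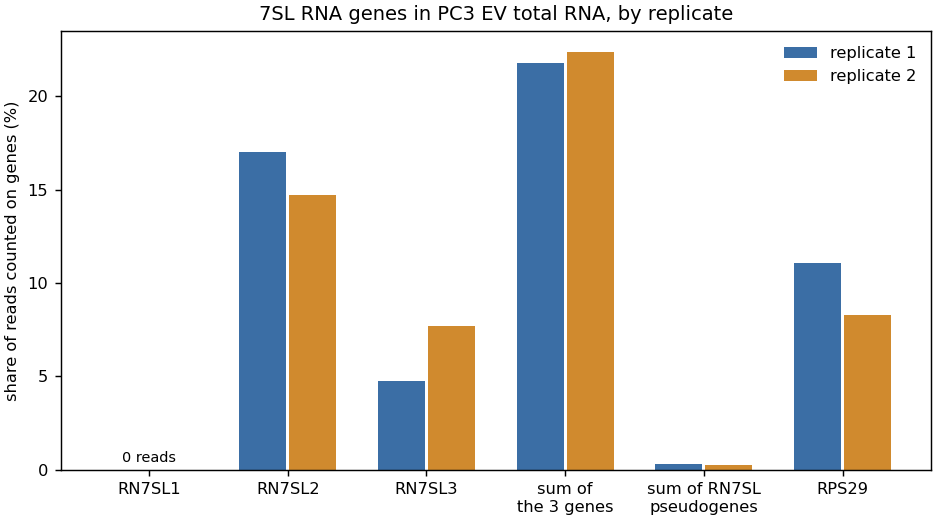
Bars show the share of the reads counted on genes (y axis, %) on each 7SL RNA gene, on their sum, on the RN7SL pseudogenes together and on RPS29, for replicate 1 (blue) and replicate 2 (orange). RN7SL1 has 0 reads, RN7SL2 is higher in replicate 1, RN7SL3 is higher in replicate 2, and their sum is 21.8% and 22.4%.

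The proportion of RN7SL2 to RN7SL3 does not depend on the library total. RN7SL2 had 3.58 times the reads of RN7SL3 in replicate 1 and 1.91 times in replicate 2, a mean of 2.74 ± 1.18 (SD, n = 2). Of the reads on both genes, RN7SL2 took 78.1% (95% Wilson interval 77.9 to 78.4%) in replicate 1 and 65.7% (65.4 to 65.9%) in replicate 2. RN7SL2 exceeded RN7SL3 in each library, although fewer of its windows occur at a single place. Divided by the number of single-place windows of 75 bases, the reads were 2310 and 1941 per window for RN7SL2 and 132 and 208 for RN7SL3, so that the ratio rose to 17.5 in replicate 1 and 9.35 in replicate 2. With windows of 150 bases it was 10.3 and 5.51. With 2 replicates and no second condition, no exact test of these differences can reach 0.05. The division by windows takes reads as spread evenly along each RNA, which was not tested. It also compares different parts of the RNAs. The single-place windows of 75 bases begin at bases 1 to 10 and 201 to 226 in RN7SL2. In RN7SL3 they begin at bases 1 to 118 and 168 to 225.

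Levels per length gave the same leading gene. Scaled to a library total of 1000000 reads (CPM) and to 1000 bases of exon, RN7SL2 stood at 566633 in replicate 1 and 489387 in replicate 2, and RN7SL3 at 158968 and 256833. By the mean of this scale they ranked 1 and 2 of all genes. In the distance over log2(CPM + 1) of both libraries, a likeness over only 2 samples, the gene nearest to RN7SL2 was RPS29 (distance 1.03), followed by RN7SL3 (2.06). The genes nearest to RN7SL3 were RPS29 (1.23) and MT-ND5 (1.29), a mitochondrial gene of respiratory complex I with 3.28% and 3.40% of the gene counts. RN7SL1 was tied at distance 0 with 46836 other genes without reads.

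The annotation around the genes differs. RPS29, which encodes a protein of the small ribosomal subunit, spans chromosome 14 from 49570984 to 49599164 on the minus strand and so covers RN7SL1 from the opposite strand. In GENCODE release 44 it shares 0 exonic bases with RN7SL1, and its nearest exon ends 101 bases away. RPS29 had 54213 reads in replicate 1 and 39341 in replicate 2, or 11.1% (11.0 to 11.2%) and 8.27% (8.19 to 8.34%) of the gene counts, a mean of 9.67% ± 1.99 (SD, n = 2). It stood far above the other genes of its kind. Of 32 other RPS genes the highest was RPS2, with 1151 and 948 reads, and their median of mean CPM was 49.7. Like RN7SL2, RPS29 had the larger share in replicate 1. The annotation release and strand setting used by the authors are not given in the sources used here, and whether reads from the RN7SL1 locus were counted on RPS29 was not tested.

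RN7SL2 lies within a lncRNA gene of the same strand, ENSG00000282885 (49861176 to 49868192), whose exons in GENCODE release 44 cover all 300 of its bases. That gene is in the count files with 0 reads in both replicates, while RN7SL2 had 83154 and 69876. A read inside RN7SL2 lies on the exons of both genes in this release. Whether the annotation used for the counts held the exons of this release, here or at RPS29, was not tested. No annotated gene spans RN7SL3. Reads that HTSeq could not assign between overlapping genes numbered 118736 in replicate 1 and 150525 in replicate 2, and the files do not say where they lie.

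The RN7SL pseudogenes served as a background. These copies, named RN7SL, a number and P, derive from 7SL RNA and are scattered over the genome. Among all 677 copies listed, 9 (1.33%) were read at least once in both replicates, against 9.63% of all genes, and 656 had none in either. Of the functional genes 2 of 3 met the same rule. The pseudogenes held 1465 reads in replicate 1 and 1111 in replicate 2, or 0.299% and 0.233% of the gene counts, a mean of 0.266% ± 0.0467 (SD, n = 2). The functional genes had 72.6 times the reads of all pseudogenes together in replicate 1 and 95.8 times in replicate 2.

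Most of the pseudogene reads lay on a pair of copies. RN7SL5P (chromosome 9, 9442060 to 9442380, plus strand) had 540 and 527 reads, a mean of 1106 CPM ± 2.38 (SD, n = 2). RN7SL4P (chromosome 3, 15738515 to 15738809, plus strand) had 576 and 436, a mean of 1047 CPM ± 185 (SD, n = 2). Together they held 76.2% of the pseudogene reads in replicate 1 and 86.7% in replicate 2. The gap between their means was smaller than the SD of RN7SL4P.

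Both pseudogenes, of 321 bases (RN7SL5P) and 295 bases (RN7SL4P), hold a long run shared exactly with a functional gene. The run of RN7SL5P covers its bases 27 to 235, 209 in all, and is found in RN7SL1. That of RN7SL4P covers bases 11 to 202, 192 in all, and is found in RN7SL2. Over their whole length they were only 85.4% and 87.0% identical to the closest functional gene, by edit distance over the longer sequence. In windows of 75 bases, 112 of 247 in RN7SL5P and 103 of 221 in RN7SL4P occurred at a single place in the genome.

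Across all pseudogenes, most reads lay on copies with an identity of 80% to 90% to a functional gene over the whole length. This rested on RN7SL5P and RN7SL4P, and most such copies had no read. Of the 316 copies with an identity of 80% to 90%, 13 had a read in either replicate, and they held 1346 of the 1465 reads in replicate 1 and 1009 of the 1111 in replicate 2. RN7SL5P and RN7SL4P alone gave 1116 and 963 of these. Of 251 copies at 70% to 80% identity 5 had a read, with 100 and 97 reads together, and of 110 below 70% 3 had one. Without RN7SL5P and RN7SL4P, the copies at 80% to 90% had more reads than those at 70% to 80% in replicate 1 and fewer in replicate 2. The closest functional gene was RN7SL1 for 435 of all 677, RN7SL2 for 185 and RN7SL3 for 57, and the highest identity was 88.6%, on a pseudogene without a read. The Spearman correlation of this identity with mean CPM was 0.0600 across the 677 pseudogenes, which share sequence and libraries and of which 656 are tied at 0. The longest run shared exactly with a functional gene, a measure chosen after the values were seen, had a Spearman correlation of 0.195 with mean CPM over the same pseudogenes, and its median was 44 bases with a read in either replicate and 23 without. The 4 pseudogenes with a shared run of at least 75 bases all had reads in both replicates, and 3 of 6 with a run of 50 to 74 bases did. Of the 667 with shorter runs, 2 had reads in both and 653 had none in either. Reads of these copies and of the functional genes cannot be fully told apart, and the exchange of reads between them was not tested.

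The other leading pseudogenes had far fewer reads. RN7SL396P, with 67 and 79 reads in replicates 1 and 2, was alone among them in having more in replicate 2, and RN7SL128P had 111 and 23. RN7SL674P had 47 and 14, RN7SL767P had 26 and 9, and RN7SL752P had 32 and 2. RN7SL200P and RN7SL693P had 24 and 16 reads in replicate 1 and none in replicate 2. RN7SL732P had 8 and 3.

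**Figure D3:**
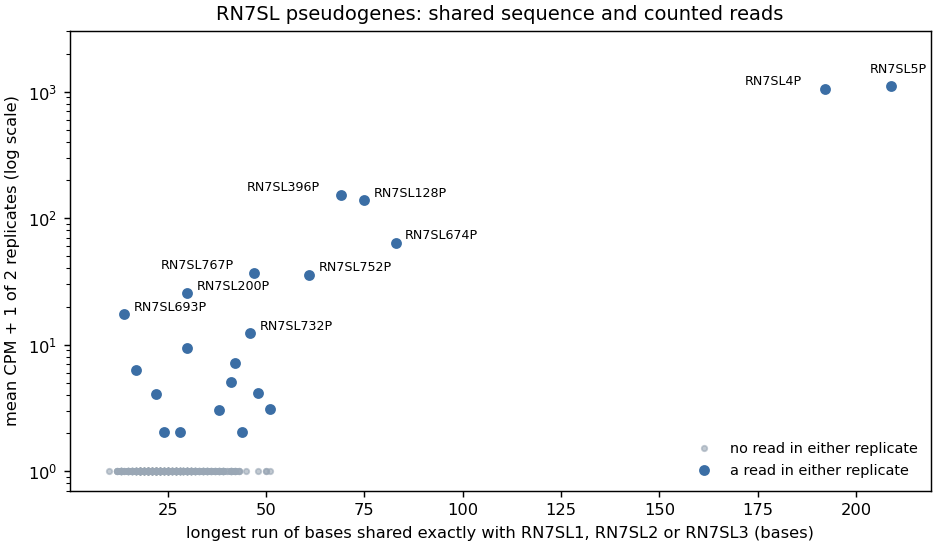
Each point is 1 of 677 RN7SL pseudogenes, placed by the longest run of bases it shares exactly with RN7SL1, RN7SL2 or RN7SL3 (x axis, bases) and by its mean CPM plus 1 over 2 replicates (y axis, log scale), blue with a read in either replicate and grey without. RN7SL5P and RN7SL4P stand apart at 209 and 192 shared bases and 1106 and 1047 CPM, while 653 of the 667 with runs under 50 bases have no read.

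The proteins that act with 7SL RNA were examined through their own transcripts. The list held 25 genes: the SRP proteins, the SRP receptor, the translocon of the endoplasmic reticulum and the signal peptidase, which removes the signal peptide. Of these, 12 (48.0%) had at least 1 read in both replicates, against 21.9% of protein-coding genes, 8 had reads in 1 replicate and 5 in neither. The median of their mean CPM was 11.2, and that of all protein-coding genes was 0. They held 422 reads together in replicate 1 and 264 in replicate 2, against 106405 and 106425 on the 7SL genes. These shares describe a list and were not tested. The background of all protein-coding genes was not matched to the list by expression level or exon length.

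Of the 6 SRP proteins, 4 had reads in both replicates. SRP9 and SRP14, which together bind the Alu domain of 7SL RNA and pause elongation, had 3 and 5 reads and 19 and 24 reads. SRP54, the GTPase that binds the signal peptide, had 14 and 11. SRP72 had 43 and 19 reads, and its partner SRP68 had 24 reads in replicate 1 and none in replicate 2. No read was counted on SRP19, which is needed to load SRP54 onto the RNA. At these counts a few reads decide the order of the genes.

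The receptor genes were each seen in a single library. SRPRA had 0 and 10 reads and SRPRB 8 and 0. Of the 12 translocon genes, 6 had reads in both replicates. The highest was SSR4, a subunit of the translocon-associated TRAP complex, with 110 and 113 reads, or 231 CPM ± 8.88 (SD, n = 2). SEC61A1, the pore-forming subunit, had 34 and 10 reads, whereas SEC61B had 0 in both. TRAM1 had 28 and 5, TRAM2 23 and 10, SEC62 2 and 16, and SSR1 20 and 1. Among the 5 signal peptidase genes, SPCS1 had 43 and 13 reads and SPCS3 had 30 and 15, while SPCS2 and the catalytic subunits SEC11A and SEC11C had none.

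**Figure D4:**
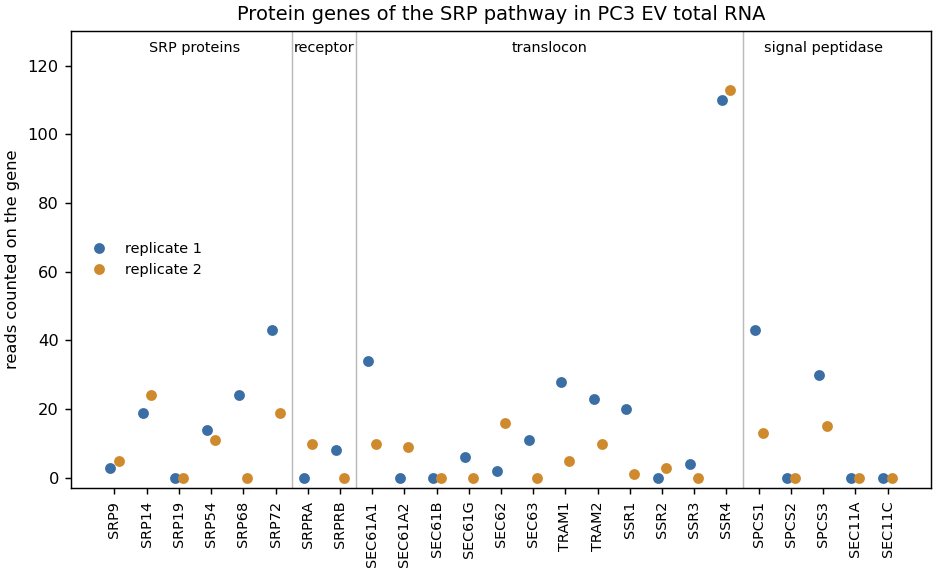
Points show the reads counted on each of 25 protein genes of the SRP pathway (y axis, linear) in replicate 1 (blue) and replicate 2 (orange), grouped by role. SSR4 is highest with 110 and 113 reads, and 5 genes have 0 reads in both replicates.

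Other RNA polymerase III transcripts did not share the high counts of RN7SL2 and RN7SL3. Of 12 listed, 11 were matched in the table, and each had 0 reads in both replicates. That was the usual state of the table, since 46837 of all 58051 genes had 0 reads in both. The 11 matched comprise RN7SK, RMRP, RPPH1, the vault RNAs VTRNA1-1, VTRNA1-2, VTRNA1-3 and VTRNA2-1, the Y RNAs RNY1, RNY3 and RNY4, and BCYRN1. As for RN7SL1, a count of 0 describes the counted reads and does not show that the RNAs were absent.

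Fragments of 7SL RNA were also sought in the small RNA libraries of PC3 EVs, where only reads on miRNA names were deposited. Of 2281 names in that table with a mature sequence in RefSeq, 0 lay in RN7SL1, RN7SL2 or RN7SL3 with at most 1 mismatch, on either strand. The table holds 2588 names, and those without a mature sequence in RefSeq were not searched. Fragments that match no miRNA are not listed in the counts.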

How the data were processed

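Total RNA of PC3 EVs was sequenced in 2 biological replicates and small RNA in 2 further libraries. After adapter trimming by Cutadapt and mapping on GRCh38, the authors counted reads on Ensembl genes by HTSeq, and they deposited these counts unnormalised, as they did counts per miRNA name after mapping with SHRiMP. The titles of both total RNA libraries carry the same preparation name, EX1, beside different replicate numbers. The sample descriptions instead name EX1 for replicate 1 and EX2 for replicate 2. Whether the EV preparations were separate thus rests on these descriptions and on the study's statement of biological replicates. Versions, strand setting, annotation release and read length in mapping are not given in the sources used here.

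Counts were assigned to replicates through the sample descriptions and divided by the reads on genes. Symbols, exons and positions came from GENCODE release 44, which matched 56948 of 58051 identifiers, and sequences from GRCh38. Members and gene lists were chosen with earlier results of these data known. Genes named were the members, genes spanning them, the 10 pseudogenes with the highest mean CPM, the 2 genes nearest each member and the listed pathway, marker and RNA polymerase III genes. RPS2 was named after its values were seen, as the highest of the other RPS genes. No test was made. The lookup of windows was checked on a simulated sequence. The intervals were checked only on counts simulated as independent reads, which amplified reads are not. Alternatives included other totals, edgeR 4.0.16 TMM and DESeq2 1.42.0 size factors (R 4.3.3), count minimums and leaving out each replicate. Other values used Python 3.11.15, pandas 2.3.3, numpy 2.4.6, scipy 1.17.1 and matplotlib 3.10.9. Some sequences and marker genes are not reported here.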

Additional observations from a re-analysis of the deposited data

How the results depend on the processing

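No paired analysis was possible because there was no second group to pair with. Scaling with TMM or DESeq2 size factors moved no share by more than its SD. With all reads of the files as the total, the mean shares of RN7SL2, RN7SL3 and their sum were 0.371%, 0.142% and 0.513%, and relative to protein-coding reads 26.8%, 10.6% and 37.4%. RN7SL2 and the sum were 18.2% and 25.4% without mitochondrial genes in the total, 18.0% and 25.0% with only genes of at least 10 reads in both replicates, and 17.6% and 24.4% without RPS29, an alternative chosen after seeing the data. RN7SL1 stayed at 0 under the totals, scalings and filters run.

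Per single-place window, the mean ratio of RN7SL2 to RN7SL3 was 12.9 with 50 bases and 13.4 with 75 or 100 bases, and, added after seeing the data, 13.4 with all contigs and 7.92 with 150 bases. Replicate 1 alone gave a ratio of 3.58 and replicate 2 alone 1.91. With each replicate left out in turn, RN7SL2 ranged from 14.7% to 17.0%, RN7SL3 from 4.75% to 7.68% and the sum from 21.8% to 22.4%.

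Without RN7SL4P and RN7SL5P, removed after seeing the data, the pseudogenes held 0.0512%. There were 5 pseudogenes with at least 10 reads in both replicates and 21 with a read in either. Taken separately, replicate 1 had a read on 17 pseudogenes and replicate 2 on 13. Of the SRP pathway genes, 20 had a read in either replicate, 17 in replicate 1 and 15 in replicate 2. RefSeq symbols gave the same 9 pseudogenes with reads in both.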
